A study of Mus musculus with 16 samples.

Results

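The genes of cholesterol synthesis, cholesterol uptake and SREBP control were followed in LPS/IC-activated macrophages treated with a GSI. The set held 31 genes, found by their symbols among the 47069 genes of the count table. They were 19 enzymes that lead from acetyl-CoA to cholesterol, 8 genes of the SREBP control machinery and 4 genes of sterol trafficking and storage. Bone marrow cells of C57BL/6 mice aged 8 to 10 weeks were grown into bone marrow-derived macrophages (BMMs) in L929-conditioned medium, primed with 10 ng/mL IFNγ and activated for 1 hr with 100 ng/mL LPS and immune complexes (ICs) of rabbit IgG and ovalbumin. One group received DAPT at 25 µM, a GSI (γ-secretase inhibitor) that blocks the cleavage releasing the intracellular part of Notch receptors, and the other received the vehicle DMSO at 0.01%. Both groups were primed and activated in the same way, so neither shows resting macrophages, and the methods place the GSI overnight before activation. The comparison asks how the mRNA levels of these genes differ between DAPT and DMSO, with 2 replicates per group. DAPT blocks γ-secretase as a whole, which also cleaves substrates other than Notch.

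Cholesterol is built from acetyl-CoA through mevalonate, isoprenoid units, squalene and the first sterol lanosterol, which later enzymes trim to cholesterol. The transcription factors SREBP-1 and SREBP-2 are made as membrane proteins of the endoplasmic reticulum (ER), where SCAP binds them and INSIG proteins hold SCAP back when sterols are plentiful. When ER cholesterol is low, SCAP carries SREBP to the Golgi, where 2 proteases release the active factor, which works with NF-Y and Sp factors at promoters of the pathway. SREBP-2 acts mainly on cholesterol genes and SREBP-1c on fatty acid genes. Macrophages also take up cholesterol from lipoproteins and cell debris, move it out of lysosomes with NPC1 and NPC2, store it as esters and export it through ABC transporters under the sterol-sensing receptors LXR.

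The 4 libraries, each the sum of 4 runs, held 42694655 to 56932059 counts, and 3 counts, the most that a 0 leaves possible, equalled 0.0527 to 0.0703 CPM, for counting error only. CPM are read counts scaled to library size, with TMM-adjusted sizes for all genes below. All 31 genes passed the filter on low counts, and the smallest count of any of them was 64. Nothing in the labels states that the replicates came from separate mice or cultures, so that p-values measure the spread between these libraries. All 10 macrophage markers were above 1 CPM in both groups, with summed levels of 12725 and 12942 CPM with DMSO and 9933 and 10839 CPM with DAPT, 7 of them lower and 1 higher with DAPT. Markers of T and NK cells summed to at most 1.08 CPM, of fibroblasts to at most 0.209 CPM and of erythroid cells to at most 0.0405 CPM. Of 10 neutrophil markers only Csf3r exceeded 1 CPM and Elane and Prtn3 were at 0, and of 6 B cell markers only Ighm did. Csf3r was higher with DAPT (60.8 and 62.5 CPM against 109 and 115 CPM), and Ighm was lower (10.2 and 9.94 CPM against 3.14 and 3.04 CPM). Mitochondrial genes took 0.488% and 0.413% of the counts with DMSO and 0.372% and 0.335% with DAPT. Dendritic cell markers summed to 186 and 179 CPM with DMSO and 113 and 115 CPM with DAPT, nearly all from Clec9a and some from Xcr1. Zbtb46 (mean 0.284 CPM with DMSO and 0.215 CPM with DAPT) and Flt3 (mean 0.0176 and 0.0409 CPM) were very low, and Siglech was at 0. The part of these differences in the results on cholesterol genes was not tested, and in bulk RNA fewer cells of a type and less RNA per cell cannot be told apart. The Notch target Hes1 was counted 5 and 2 times in the DMSO libraries and 1 and 5 times in the DAPT libraries, too few to test, so it did not serve as a check of the inhibitor.

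Promoter windows of RefSeq, from 250 bases before to 50 bases after an annotated start on GRCm38.p6, were given for 26 of the 31 genes. They are printed below for 5 enzymes, on the strand of the gene. Hmgcs1 is shown for its SRE core, Mvd and Idi1 for the 2 largest fold changes among the enzymes, Cyp51 for the smallest FDR among the enzymes, and Nsdhl as an enzyme with many NF-Y boxes and a log2 fold change near 0. Capitals mark matches to the SRE core (TCACNCCAC, a form of the SREBP site) and the NF-Y box (CCAAT, or ATTGG on the other strand). The windows are chr13:119690101-119690400 for Hmgcs1 and chr13:8885356-8885655 for Idi1 on the plus strand, chr8:122443373-122443672 for Mvd and chr5:4104648-4104947 for Cyp51 on the minus strand, and chrX:72918271-72918570 for Nsdhl on the plus strand.
Hmgcs1: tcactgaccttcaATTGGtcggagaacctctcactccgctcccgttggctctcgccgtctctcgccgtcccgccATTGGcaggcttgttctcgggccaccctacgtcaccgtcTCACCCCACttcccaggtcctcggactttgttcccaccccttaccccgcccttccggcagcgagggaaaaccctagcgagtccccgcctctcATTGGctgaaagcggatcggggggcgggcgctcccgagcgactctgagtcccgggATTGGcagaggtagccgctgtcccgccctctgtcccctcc
Mvd: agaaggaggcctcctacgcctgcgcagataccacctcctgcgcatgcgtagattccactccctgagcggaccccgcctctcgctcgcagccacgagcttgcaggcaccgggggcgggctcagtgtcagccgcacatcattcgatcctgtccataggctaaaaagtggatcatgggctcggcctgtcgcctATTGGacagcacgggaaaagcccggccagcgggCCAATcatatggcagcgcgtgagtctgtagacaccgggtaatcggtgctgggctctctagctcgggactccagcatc
Idi1: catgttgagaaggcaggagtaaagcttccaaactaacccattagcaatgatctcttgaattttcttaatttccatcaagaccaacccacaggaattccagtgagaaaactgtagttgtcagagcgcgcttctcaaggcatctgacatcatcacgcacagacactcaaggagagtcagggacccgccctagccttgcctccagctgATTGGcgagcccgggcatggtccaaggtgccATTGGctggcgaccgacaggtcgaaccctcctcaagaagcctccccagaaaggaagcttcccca
Cyp51: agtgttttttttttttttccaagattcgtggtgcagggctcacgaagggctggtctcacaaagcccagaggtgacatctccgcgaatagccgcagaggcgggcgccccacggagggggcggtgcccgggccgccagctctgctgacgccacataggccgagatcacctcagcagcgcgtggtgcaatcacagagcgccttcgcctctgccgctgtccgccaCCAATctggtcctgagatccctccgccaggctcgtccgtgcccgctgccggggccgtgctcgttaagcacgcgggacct
Nsdhl: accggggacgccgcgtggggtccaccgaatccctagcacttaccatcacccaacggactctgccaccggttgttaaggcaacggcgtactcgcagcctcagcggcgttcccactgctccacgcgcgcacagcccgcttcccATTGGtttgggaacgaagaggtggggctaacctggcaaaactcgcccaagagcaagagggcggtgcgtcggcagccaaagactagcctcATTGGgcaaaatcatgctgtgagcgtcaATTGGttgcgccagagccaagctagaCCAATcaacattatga

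Most of the windows held an NF-Y box. At least 1 CCAAT on either strand was present in the windows of 22 of the 26 genes (84.6%), against 42.9% of the 9401 tested genes with a window. Within 100 bases before the start it was present in 19 of 26 (73.1%), against 26.2%. The GC box GGGCGG, a site of Sp factors, was found on either strand in 24 of 26 (92.3%), against 68.0%, and the E-box CACGTG in 5 of 26 (19.2%), against 11.9%. Only Hmgcs1 held the SRE core, as TCACCCCAC beginning 137 bases before the start (3.85% of 26 genes, against 1.41%). Sites that depart from the letters of the core were not searched, so a window without it can still hold an SREBP site. Some genes had several starts, 36 windows for 26 genes and 11989 windows for the 9401, and the median GC content was 62.2% and 60.3%, which were not adjusted for. Matches of different motifs did not overlap in the windows of the 31 genes. The NF-Y box was in 13 of the 14 with a window that were higher with DAPT and in 9 of the other 12. These groups had 14 and 22 windows. Of all tested genes with a window that were higher, 41.1% held the box. A link between the NF-Y box and the change with DAPT was not tested. Nsdhl held 4 such boxes, as many as Hmgcs1, and differed by less than its standard error. Sqle, Fdft1, Fdps, Npc1 and Stard4 had no window in the table.

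**Figure D1:**
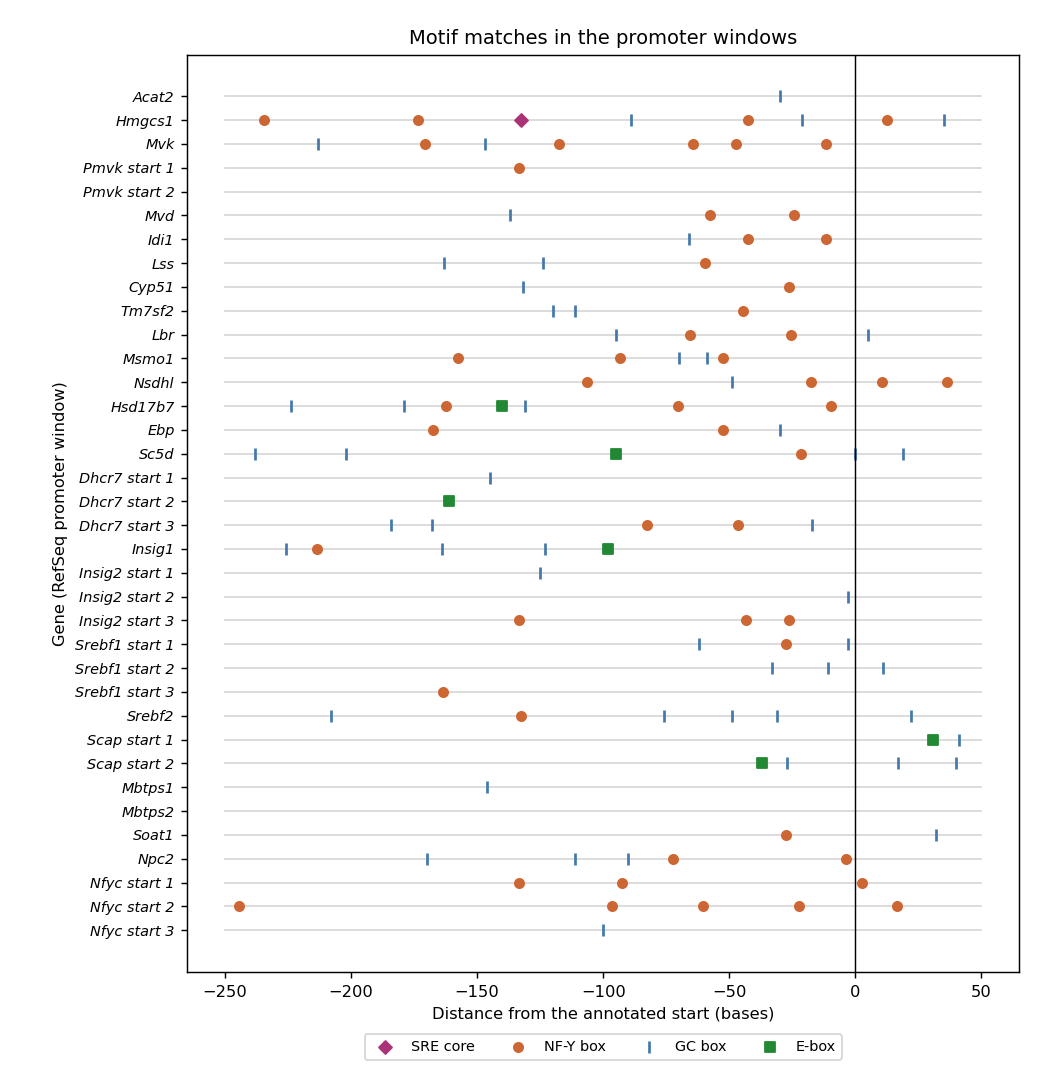
Positions of motif matches (symbols, on either strand) along the promoter windows of 26 genes, with distance in bases from the annotated start on the horizontal axis and 1 line per window. NF-Y boxes gather just before the start, where 19 of 26 genes held 1 within 100 bases, and the SRE core appears once, in Hmgcs1.

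With DAPT, 18 of the 31 genes were higher and 3 were lower at an FDR under 0.05 in edgeR's quasi-likelihood test, and 10 did not pass. Over all 13211 genes tested, 19.0% were higher and 21.9% were lower. The 18 were 13 enzymes, Insig1, Srebf2, Stard4, Soat1 and Npc2, and the 3 were Lbr, Scap and Mbtps2. The median log2 fold change of the 31 genes was 0.42, against 0.01 over all genes tested. None of the 31 also exceeded an absolute log2 fold change of 1.5, which 2.91% of all genes tested did together with the FDR. In 22 genes both DAPT libraries lay above both DMSO libraries, as in 35.8% of all genes tested, and in 4 genes both lay below, as in 34.8%. The groups overlapped for Tm7sf2, Nsdhl, Insig2, Srebf1 and Nfyc. The 19 enzymes summed to 237 and 232 CPM with DMSO and to 334 and 348 CPM with DAPT, 1.45-fold higher.

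**Figure D2:**
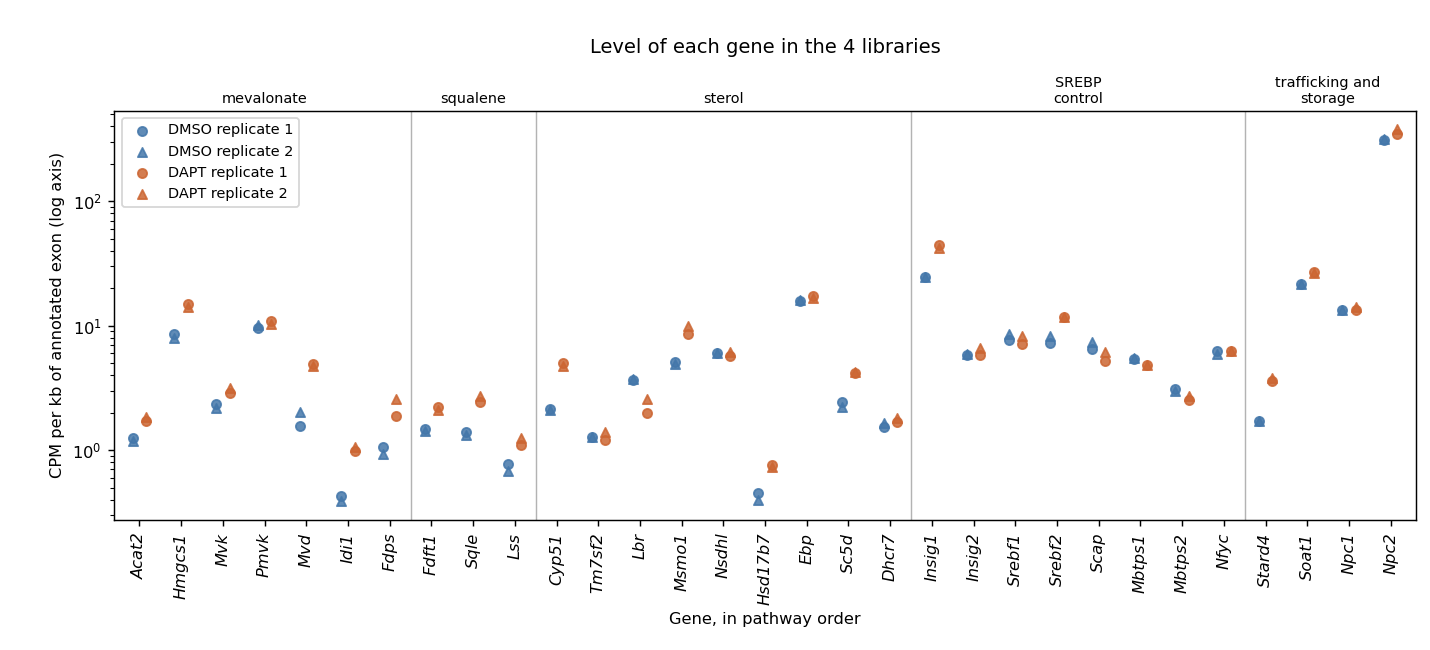
Level of each of the 31 genes in the 4 libraries, in CPM per kb of annotated exon on a log axis, with circles for replicate 1, triangles for replicate 2, blue for DMSO and orange for DAPT. For 16 of the 19 enzymes both DAPT points lie above both DMSO points, and Npc2 stands far above the other genes in both groups.

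Per length, the genes spanned a wide range of levels. Npc2, a soluble protein of the lysosome that hands over cholesterol, stood highest in both groups, at 313 CPM per kb with DMSO and 365 CPM per kb with DAPT. Insig1 (24.6 and 43.2 CPM per kb) and Soat1 (21.6 and 26.8 CPM per kb) followed. Of the enzymes, Ebp was the highest, between 15.7 and 17.2 CPM per kb over the 4 libraries. Idi1 (0.406 and 1.03 CPM per kb) and Hsd17b7 (0.426 and 0.746 CPM per kb) were the lowest, and their order turned between the groups. Over the DMSO libraries the ranges of Idi1 (0.387 to 0.424) and Hsd17b7 (0.397 to 0.455) overlapped, while Insig1, Soat1 and Ebp were each apart from the next in both groups by more than their replicates.

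Of the 7 genes of the mevalonate steps 6 rose and 1 did not pass, with a median log2 fold change of 0.81. Acat2, the cytosolic thiolase that joins acetyl-CoA units and not the sterol esterifying enzyme of the same protein name, was at 3.18 and 3.03 CPM with DMSO and at 4.39 and 4.66 CPM with DAPT. Its DAPT libraries both lay above, and its log2 fold change was 0.54 (SE 0.138, FDR = 0.00361). Hmgcs1, which makes HMG-CoA, went from 39.1 and 36.5 CPM to 68.1 and 64.6 CPM. The replicates of each group were close, and the rise of 0.81 on the log2 scale (SE 0.0747, FDR = 3.39e-08) was 1.76-fold. Mvk, the mevalonate kinase, had 6.30 and 5.80 CPM with DMSO and 7.67 and 8.44 CPM with DAPT. The difference was smaller, 0.42 (SE 0.114, FDR = 0.00595), and with DMSO replicate 2 left out its FDR was 0.0641. Pmvk, the next kinase, was the exception with 16.4 and 17.4 CPM against 18.6 and 17.7 CPM, a log2 fold change of 0.10 (FDR = 0.369).

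The last 3 genes of this branch had larger differences. Mvd, which decarboxylates the diphosphate to isopentenyl diphosphate, was at 2.93 and 3.75 CPM with DMSO and 9.16 and 8.81 CPM with DAPT. That was the largest fold change of the 31 genes, 2.66-fold, with a log2 fold change of 1.41 (SE 0.130, FDR = 3.45e-08), above those of all but 0.893% of genes tested. Without DMSO replicate 2 it was 1.61, past the fold threshold. Idi1, the isomerase of that product, went from 1.49 and 1.36 CPM to 3.48 and 3.75 CPM, a log2 fold change of 1.35 (SE 0.170, FDR = 2.38e-06). It rested on the fewest counts, 64 and 77 with DMSO and 168 and 185 with DAPT. Fdps, the synthase of farnesyl diphosphate, stood at 4.46 and 3.95 CPM with DMSO and 7.96 and 10.9 CPM with DAPT, a log2 fold change of 1.17 (SE 0.140, FDR = 1.21e-06). Its DAPT replicates differed 1.37-fold, the largest replicate ratio among the 31 genes, and both lay above DMSO. Fdps also shares 1124 exon bases with the same-strand gene Gm43738, whose reads cannot be told apart there.

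The 3 genes that make and close squalene all rose, with a median log2 fold change of 0.69. Fdft1, squalene synthase, had 6.28 and 6.06 CPM with DMSO and 9.37 and 8.95 CPM with DAPT (log2 fold change 0.57, SE 0.108, FDR = 0.000261). Sqle, the monooxygenase that makes squalene epoxide, had 7.81 and 7.38 CPM and then 13.6 and 15.0 CPM (log2 fold change 0.92, SE 0.101, FDR = 3.98e-07). In both genes the DAPT libraries lay above the DMSO libraries. Lss, which closes the epoxide into lanosterol, had 8.41 and 7.28 CPM with DMSO and 11.8 and 13.4 CPM with DAPT (log2 fold change 0.69, SE 0.108, FDR = 3.32e-05).

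The 9 enzymes that turn lanosterol into cholesterol were mixed: 4 rose, 1 fell and 4 did not pass, with a median log2 fold change of 0.13. Cyp51, the cytochrome that removes the first methyl group, was at 9.46 and 9.34 CPM with DMSO and at 22.3 and 21.1 CPM with DAPT. Its rise of 1.21 (SE 0.0909, FDR = 2.19e-09), 2.31-fold, had the smallest FDR of all 31 genes. Msmo1, the sterol methyl oxidase of the next demethylation, went from 31.4 and 30.1 CPM to 52.6 and 60.6 CPM (log2 fold change 0.88, SE 0.0810, FDR = 3.44e-08). Sc5d, the desaturase that places a double bond in the ring, went from 11.8 and 10.8 CPM to 20.4 and 20.6 CPM (log2 fold change 0.86, SE 0.0904, FDR = 2.19e-07). Hsd17b7, the reductase that completes demethylation, had the lowest DAPT level per length but also rose, from 2.32 and 2.03 CPM to 3.89 and 3.73 CPM (log2 fold change 0.81, SE 0.155, FDR = 0.000278).

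Of the enzymes around these, Nsdhl, Ebp and Dhcr7 did not pass the test. Nsdhl, which works between Msmo1 and Hsd17b7, was at 17.4 and 17.3 CPM with DMSO and 16.3 and 17.6 CPM with DAPT (log2 fold change −0.03, FDR = 0.783). Ebp, the isomerase before Sc5d, had 36.3 and 37.5 CPM against 39.8 and 38.6 CPM (log2 fold change 0.09, FDR = 0.364). Dhcr7, the reductase that acts after Sc5d, had 8.88 and 9.62 CPM against 9.72 and 10.6 CPM (log2 fold change 0.13, FDR = 0.326). Within the stretch from Msmo1 to Dhcr7 the called and the uncalled genes thus alternated along the pathway. The exact order of these steps differs between the branches of the pathway, and the order used here is the textbook one.

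The sterol C14 reductase step is shared by 2 proteins, and their genes parted. Tm7sf2, the ER reductase, had 5.60 and 5.57 CPM with DMSO and 5.36 and 6.16 CPM with DAPT (log2 fold change 0.04, FDR = 0.805). Lbr (chr1:181815335-181843046 on the minus strand of GRCm38), the lamin B receptor, which anchors chromatin at the nuclear envelope and carries the same reductase activity, fell from 17.5 and 17.7 CPM to 9.43 and 12.4 CPM. It was the only enzyme that fell, with a log2 fold change of −0.69 (SE 0.108, FDR = 3.35e-05). The DAPT replicates of Lbr differed 1.31-fold and both were below DMSO. The ratio of Tm7sf2 to Lbr in CPM per kb was 0.346 and 0.340 with DMSO and 0.614 and 0.538 with DAPT. Tm7sf2 shares 532 exon bases with the same-strand gene Vps51.

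**Figure D3:**
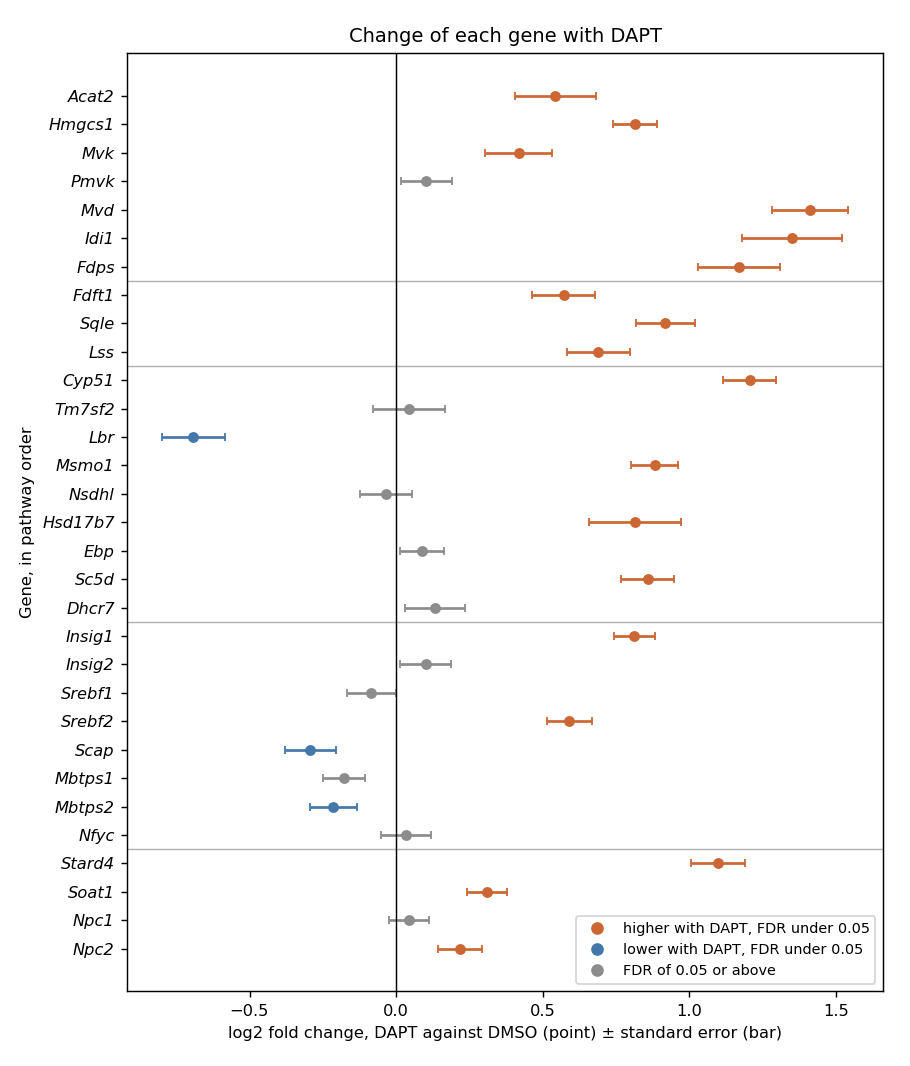
Log2 fold change of each of the 31 genes, DAPT against DMSO (points), with the standard error (bars), in pathway order with lines between the roles. Orange points are higher and blue points lower at an FDR under 0.05 and grey points did not pass. The mevalonate and squalene steps all lie to the right, with only Pmvk grey, and the largest value is 1.41 for Mvd.

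Of the 8 SREBP control genes 2 were higher, 2 were lower and 4 did not pass, with a median log2 fold change of −0.03. Srebf2 (chr15:82147181-82205379 on the plus strand of GRCm38), which codes for SREBP-2, was at 52.1 and 59.6 CPM with DMSO and at 84.2 and 84.3 CPM with DAPT. Its groups were apart by more than the replicates, with a rise of 0.59 (SE 0.0765, FDR = 3.27e-06), 1.51-fold. Srebf1, which codes for SREBP-1a and SREBP-1c from different starts that gene counts do not separate, had 43.1 and 48.6 CPM against 40.4 and 46.2 CPM (log2 fold change −0.09, FDR = 0.441). The groups of Srebf1 overlapped, and its direction turned when DMSO replicate 2 or DAPT replicate 1 was left out. In CPM per kb the ratio of Srebf1 to Srebf2 was 1.06 and 1.04 with DMSO and 0.612 and 0.699 with DAPT. By this measure they were near equal with DMSO and Srebf2 was the larger with DAPT. The length is that of all annotated exons, not of the transcripts present, and in CPM Srebf2 was the larger in both groups.

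The pair of retention proteins parted in the same manner. Insig1 (chr5:28071363-28078662 on the plus strand) went from 76.1 and 75.9 CPM with DMSO to 137 and 130 CPM with DAPT. The rise of 0.81 (SE 0.0702, FDR = 1.42e-08), 1.76-fold, was far larger than the replicate differences. INSIG1 is itself a product of an SREBP target gene, whereas Insig2 is known to be controlled otherwise. Insig2 had 20.2 and 20.5 CPM against 20.4 and 23.2 CPM (log2 fold change 0.10, FDR = 0.382), and its groups overlapped. Their ratio in CPM per kb was 4.24 and 4.16 with DMSO and 7.56 and 6.29 with DAPT.

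Of the 3 genes that carry and cut SREBP, Scap and Mbtps2 passed the test and Mbtps1 did not. Scap, the escort, had 48.2 and 55.0 CPM with DMSO and 38.9 and 45.5 CPM with DAPT, a lower level (log2 fold change −0.29, SE 0.0860, FDR = 0.00996). The higher DAPT library lay just below the lower DMSO library, and without DMSO replicate 2 or DAPT replicate 1 its FDR was 0.137 and 0.112. Mbtps2, the site-2 protease, had 31.3 and 30.2 CPM with DMSO and 25.4 and 27.6 CPM with DAPT (log2 fold change −0.21, SE 0.0797, FDR = 0.0377). That call was lost without DMSO replicate 1, DMSO replicate 2 or DAPT replicate 1 (FDR = 0.161, 0.0675 and 0.224), with DESeq2 and without the filter on low counts. Mbtps1, the site-1 protease, had 57.2 and 58.0 CPM against 50.7 and 51.3 CPM (log2 fold change −0.18, SE 0.0713, FDR = 0.0533). Its groups did not overlap, and it passed under 5 other settings, with an FDR of 0.0453 to 0.0479 under 3 of them, 0.0218 with the replicate block and 4.23e-06 with the 16 runs as separate samples. Nfyc, a subunit of NF-Y, had 18.6 and 17.4 CPM against 18.5 and 18.3 CPM (log2 fold change 0.03, FDR = 0.791).

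**Figure D4:**
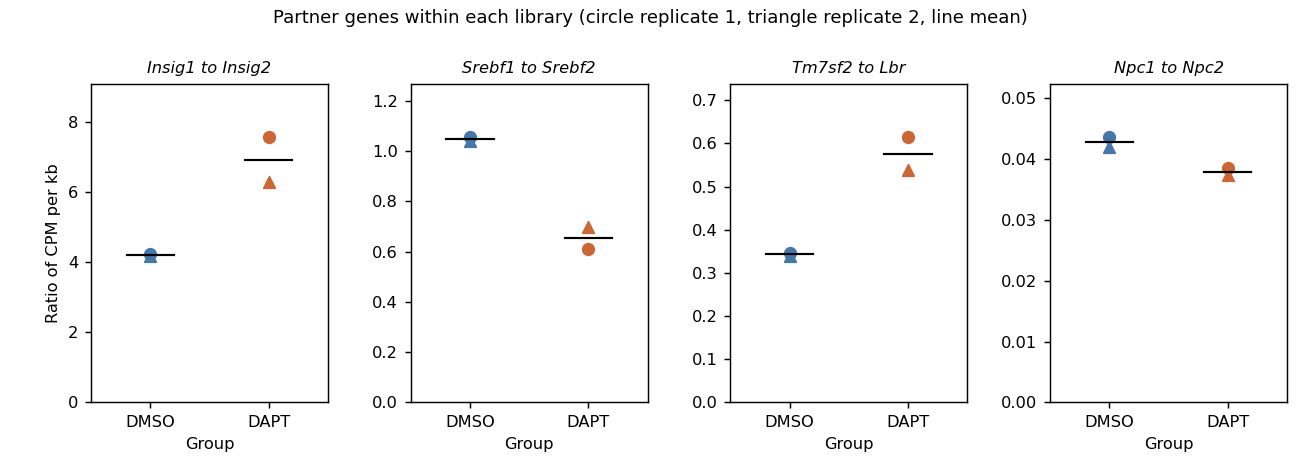
Ratio of CPM per kb between partner genes within each library, with blue for DMSO, orange for DAPT, circles for replicate 1, triangles for replicate 2 and a line at the mean. The groups lie apart in every panel, and Npc1 to Npc2 moves least. Each panel has its own axis from 0.

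The ratios are given as descriptions, since the smallest 2-sided p that an exact permutation test of 2 against 2 libraries can give is 0.333. Of the 4 trafficking and storage genes 3 rose and 1 did not pass, with a median log2 fold change of 0.26. Stard4, a soluble carrier that moves cholesterol between membranes, was at 9.65 and 9.62 CPM with DMSO and 20.0 and 21.2 CPM with DAPT. Its groups were far apart, and its rise of 1.10 (SE 0.0911, FDR = 8.02e-09), 2.14-fold, was the largest outside the enzymes. Soat1, the ER enzyme that esterifies cholesterol for storage, rose from 210 and 213 CPM to 264 and 261 CPM (log2 fold change 0.31, SE 0.0684, FDR = 0.00113). The lysosomal pair differed little. Npc1, the membrane protein that takes cholesterol from NPC2, had 152 and 151 CPM against 152 and 160 CPM (log2 fold change 0.04, FDR = 0.647). Npc2 had 1675 and 1734 CPM against 1900 and 2066 CPM (log2 fold change 0.22, SE 0.0755, FDR = 0.0260). That call of Npc2 was lost without DMSO replicate 1, DMSO replicate 2 or DAPT replicate 2 (FDR = 0.167, 0.0737 and 0.144). The ratio of Npc1 to Npc2 in CPM per kb was 0.0435 and 0.0418 with DMSO and 0.0384 and 0.0373 with DAPT.

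Some of these genes overlap others on the opposite strand, where reads could be mixed if the counting had not used strand. Of the 22 genes without such exons, 13 were higher, 1 was lower and 8 did not pass. Of the 9 with them, 5 were higher, 2 were lower and 2 did not pass. The overlap that weighs most is that of Fdft1, which shares 774 bases, 18.3% of its exons, with the cathepsin gene Ctsb at 403094 to 597683 counts. Fdft1 had 0.670 and 0.613 counts per 1000 counts of Ctsb with DMSO and 0.852 and 0.740 with DAPT. Cyp51 shares 166 bases with Akap9 and had 164 and 170 counts per 1000 counts of that gene with DMSO and 530 and 483 with DAPT. The gene opposite Scap, 5830462I19Rik, had 6 and 5 counts with DMSO and 0 with DAPT. No counts were found for the genes opposite Hmgcs1, Idi1, Lss and Lbr. A gene absent from the count table would also show as 0, so this need not be a measured 0. Mbtps2 shares 2867 exon bases with the same-strand gene Yy2.

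Beside the 31 genes, other genes of the pathway were counted in lists, each to be read against the 19.0% higher and 21.9% lower over all genes tested. Of 15 further genes of cholesterol synthesis, uptake and transport 6 were higher, 4 were lower and 5 did not pass, with a median log2 fold change of 0.13. Soat2, the second sterol esterifying enzyme, was at 2.70 and 2.77 CPM with DMSO and 7.01 and 7.29 CPM with DAPT, a log2 fold change of 1.39 (SE 0.130, FDR = 4.57e-08). Lrp1, a receptor for remnant lipoproteins and many other ligands, fell from 533 and 530 CPM to 204 and 222 CPM (log2 fold change −1.32, SE 0.0729, FDR = 3.25e-11). Gramd1a, which carries cholesterol from the plasma membrane to the ER, fell from 86.5 and 96.4 CPM to 67.3 and 71.2 CPM (log2 fold change −0.40, FDR = 0.000222).

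Another branch leaves the pathway at farnesyl diphosphate, toward prenylated proteins, dolichol and ubiquinone. Of its 15 genes 3 were higher, 1 was lower and 11 did not pass, with a median log2 fold change of 0.08. The called genes included Rabggtb, a subunit that prenylates Rab proteins (log2 fold change 0.31, FDR = 0.00279), and Pggt1b, a subunit of another prenyltransferase (log2 fold change −0.44, FDR = 0.00100).

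Of 14 genes of SREBP retention in the ER, its transport and the degradation of sterol-regulated proteins 2 were higher, 3 were lower and 9 did not pass, with a median log2 fold change of 0.01. Spring1, listed in the table under its older symbol and needed for site-1 protease activity, was at 5.93 and 6.01 CPM with DMSO and 9.21 and 7.80 CPM with DAPT (log2 fold change 0.51, SE 0.116, FDR = 0.00149). Rnf145, a sterol-responsive ubiquitin ligase, fell from 114 and 113 CPM to 61.2 and 59.6 CPM (log2 fold change −0.91, SE 0.0700, FDR = 2.99e-09). It was the largest difference of this list. Paqr3, a Golgi protein that tethers SCAP, had 1.39 and 1.34 CPM with DMSO and 0.931 and 0.830 CPM with DAPT (log2 fold change −0.63, FDR = 0.0341), and Sar1b of the vesicle coat that carries SCAP had a log2 fold change of 0.23 (FDR = 0.0284). Of the 4 genes Nfya, Nfyb, Sp1 and Sp3, partners of SREBP at promoters, 0 were called by edgeR and 1 had an unadjusted p under 0.05, with a median of −0.11.

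SREBP also acts on genes of fatty acid synthesis. Of the 12 genes tested on that side 2 were higher, 5 were lower and 5 did not pass, with a median log2 fold change of −0.28, and 2 of the 14 listed were too low to test. Scd2, a stearoyl-CoA desaturase, fell from 12.6 and 12.5 CPM to 5.19 and 5.08 CPM (log2 fold change −1.29, SE 0.106, FDR = 6.53e-09), and Elovl6, an elongase, from 2.44 and 2.08 CPM to 1.37 and 1.48 CPM (log2 fold change −0.66, FDR = 0.00868). Me1, which makes NADPH, rose from 5.07 and 3.98 CPM to 7.86 and 8.26 CPM (log2 fold change 0.84, FDR = 2.16e-05), and Acss2, which makes acetyl-CoA from acetate, from 8.97 and 8.60 CPM to 12.4 and 13.4 CPM (log2 fold change 0.56, FDR = 0.000140). The difference between the fatty acid list and the cholesterol enzymes was not tested. Of 8 genes of the LXR axis 1 was higher, 3 were lower and 4 did not pass, with a median of −0.08. Nr1h3, which codes for LXRα, had a log2 fold change of 0.83 (FDR = 2.54e-08), while the exporters Abca1 and Abcg1 had −2.28 and −0.64 (FDR = 1.53e-13 and 2.76e-07).

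**Figure D5:**
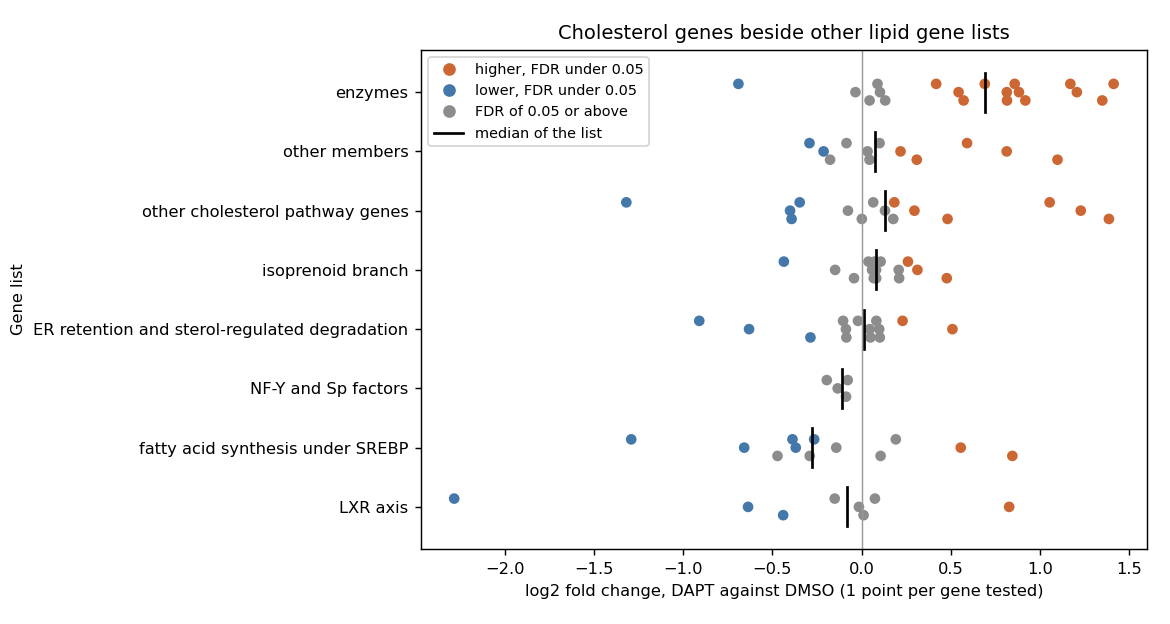
Log2 fold change, DAPT against DMSO, of every tested gene (points) in the 19 enzymes, the other members and 6 further lists, with a bar at each median. Orange is higher and blue lower at an FDR under 0.05, grey did not pass. The median of the enzymes is 0.69, and the medians of the 6 further lists lie between −0.28 and 0.13.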

How the data were processed

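RNA-seq was performed on LPS/IC-activated BMMs of 2 groups. The authors trimmed adapters with Trimmomatic, aligned reads with STAR (2.5.0a per the labels) to mm10 and counted them per gene with HTSeq; the submitters' processing notes also name mm9. The deposited values are these raw counts for 16 columns, without normalization; the HTSeq mode and strand setting are not given in the sources used here. The 4 columns of a replicate, taken as runs, differed by about the sampling noise (chi-square per degree of freedom 1.01 to 1.03) and were summed.

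Genes were tested with edgeR 4.0.16 (R 4.3.3): filterByExpr, TMM, quasi-likelihood test on group, Benjamini-Hochberg adjustment over 13211 genes (FDR). CPM per kb used merged exons of GENCODE M21 (GRCm38), which held 98.77% of the gene IDs. Motifs were matched on both strands of RefSeq promoter windows. Scripts were tested on simulated data. Alternatives were DESeq2 1.42.0, other normalizations and filters, a replicate block, separate runs and leaving out each library.

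The members and lists were chosen with earlier results of these data known. Named were all members and, per further list, up to 2 called changes in each direction averaging at least 1 CPM. Some genes are counted in the lists but not reported here by name.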

Additional observations from a re-analysis of the deposited data

How the results depend on the processing

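With other normalization, other filters on low counts, DESeq2, the replicate block or the 16 runs as separate samples, 18 or 19 of the 31 genes were higher, 2 to 4 were lower and 0 were past the fold threshold. With 1 library left out, the remaining library of its group being assumed to vary like the others, 16 to 18 were higher, 1 to 3 were lower and 0 to 1 were past the fold threshold, the 1 being Mvd. Only 1 was lower without DMSO replicate 2 or without DAPT replicate 1. The genes called in the 6 further lists numbered 30, 27 to 33 under other normalization, filters, DESeq2 or the replicate block, 26 to 29 with 1 library left out and 48 with the 16 runs, which share their replicates. The replicate number names no shared animal or day in the labels (r = 0.155 between deviations of same-numbered libraries, the same for both numbers by construction). With the replicate block 18 genes were higher, 4 were lower and 33 genes of the further lists were called, with Mbtps1 the added gene (FDR = 0.0218). Leaving out 1 library turned the direction of 4 genes that were not called, whose log2 fold changes then ranged from −0.19 to 0.0090 for Srebf1 (0.0027 without DMSO replicate 2), from −0.019 to 0.078 for Nfyc, from −0.089 to 0.019 for Nsdhl and from −0.058 to 0.14 for Tm7sf2. Over the 7 other settings Mbtps2 lost its call without the filter (FDR = 0.0648) and with DESeq2 (FDR = 0.0787), and Mbtps1 gained one with RLE normalization (0.0459), no normalization factors (0.0479), at least 10 counts in every library (0.0453) and the 16 runs, which also added Ebp (0.0182). The cause of these changes was not tested. Only 2 libraries per group back each spread, and levels under 0.0527 to 0.0703 CPM are at the counting limit.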
